A study of Mus musculus with 6 samples.

Results

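The genes examined here are those that make sterols and fatty acids, with the factors that switch both routes on, in differentiating mouse osteoblasts. The list holds 33 genes, taken by symbol: 18 sterol enzymes, 6 regulators or carriers and 9 fatty acid enzymes. For each gene the probe set that carries its symbol alone was used, the one with the highest mean where there were several. This gave values for 30 of the 33 genes, 16 sterol enzymes, all 6 regulators or carriers and 8 fatty acid enzymes, out of 22180 genes measured. The probe sets of Idi1 and Scd2 each carry the symbol of another gene as well, and Acat2 had none here, so these 3 are given no value. All 30 genes entered the test, since no filter on level was applied.

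The cells were MC3T3-E1, an established mouse pre-osteoblast line derived from calvaria. Both groups were grown to confluency and then differentiated until day 14 with ascorbic acid (50 µg/ml) plus β-glycerophosphate (10 mM). One group of 3 arrays received NU7441 at 1 µM, which blocks the DNA-dependent protein kinase, and the other, also of 3 arrays, received the vehicle DMSO. RNA of whole cells was hybridised to Affymetrix arrays, and every value below is a log2 signal or a difference of log2 signals. The study is about the phosphorylation of alphaNAC, a transcriptional coregulator, by this kinase in bone-forming cells. Whether the arrays of a group stem from different cultures is not stated in the labels, so the spread behind each p-value may be technical.

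Sterol synthesis condenses acetyl-CoA to mevalonate, builds isoprenoid units from it, joins these to squalene and folds squalene into lanosterol, which is trimmed to cholesterol. Fatty acid synthesis starts from the same acetyl-CoA, makes palmitate and then lengthens and desaturates it. Both routes are switched on by the SREBP transcription factors, SREBP2 acting mainly on sterol genes and SREBP1 mainly on fatty acid genes. SCAP carries SREBP out of the endoplasmic reticulum when sterols are low, and the INSIG proteins hold SCAP back when sterols are plentiful.

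No gene of either route passed the test between NU7441 and DMSO. In limma, the moderated linear model fitted over all genes, 0 of 30 had an adjusted p under 0.05, where 0% of all genes did, and the smallest adjusted p among the 30 was 0.830. At an unadjusted p under 0.05 there were again 0 of 30, against 6.79% of all genes. The differences ran between -0.12, for Elovl6, and 0.096, for Tm7sf2, with 14 genes higher and 16 lower with NU7441. Every 95% interval lay between -0.38 and 0.41, that is between 0.767-fold and 1.33-fold. For the probe sets used, a 1.41-fold change in array signal in either direction was thus outside the interval of all 30 genes. That holds for 87% of all genes. The intervals are per gene, from the probe set used, with no allowance for their number. The interval of a dimmer Scap probe set, given below, did take in a 1.41-fold rise.

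**Figure D1:**
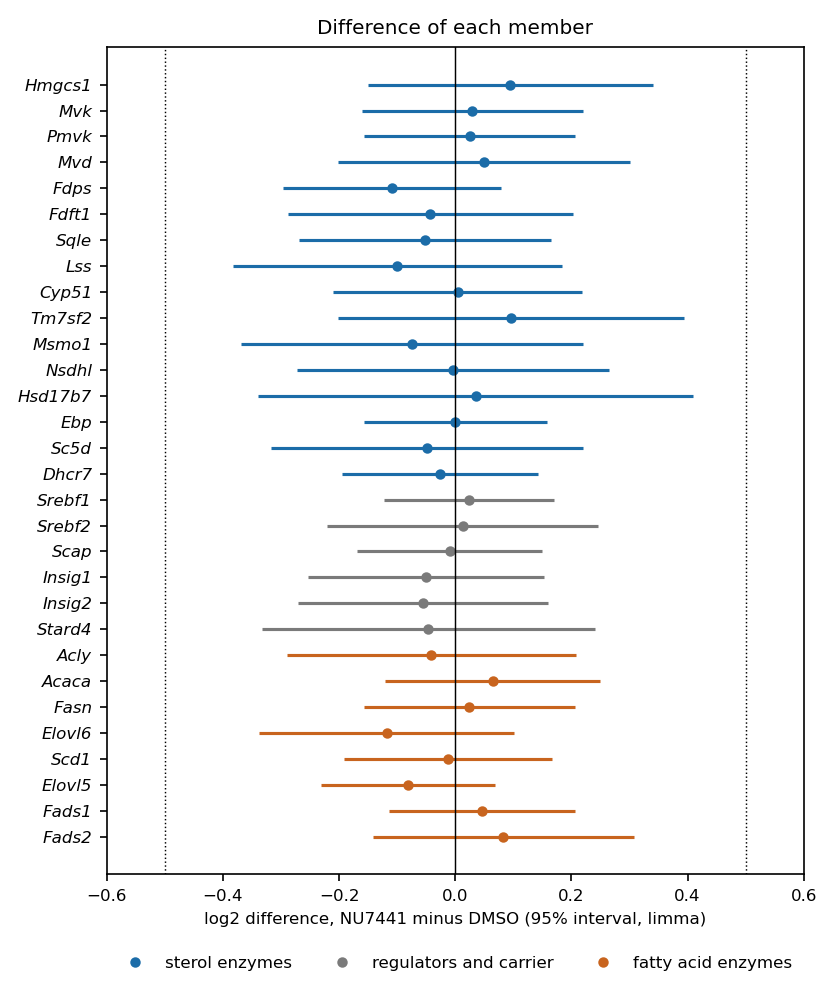
Log2 difference of each of the 30 genes, NU7441 minus DMSO (x axis), with its 95% interval from limma (bars, n = 3 arrays per group), coloured by class. The dotted lines mark a 1.41-fold change; every bar crosses 0 and none reaches a dotted line.

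The median difference of each branch was small, but no shift of a branch as a whole was tested. By array, the branch medians of the deviations from each gene's own mean varied within groups. Their within-group SD, pooled over both groups, was 0.121 for the sterol enzymes and 0.063 for the fatty acid enzymes. Among sterol enzymes 8 were higher and 8 lower with NU7441, with a median difference of -0.0018. Fatty acid enzymes split 4 and 4, with a median of 0.0058, and the regulators and carrier 2 and 4, with a median of -0.028. Over all genes the median was 0.0036. The gap between the branches, sterol minus fatty acid, was -0.0076.

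The 250 bases before the start site are shown for 5 genes, as examples of the windows in which SREBPs and their partner NF-Y are known to bind. Sequences are from RefSeq on GRCm38.p6, where 26 of the 33 genes had a window, and run 5′ to 3′ along the gene's strand. Capitals mark 3 motifs on either strand: CACNCCAC, which is the core of the classical sterol regulatory element, CCAAT, the box bound by NF-Y, read ATTGG on the other strand, and the E-box CACGTG. Hmgcs1 stands for the mevalonate route, Hsd17b7 and Ebp for the sterol enzymes with the widest and the narrowest spread between arrays, Insig1 for the regulators and Fasn for fatty acid synthesis.
Hmgcs1, chr13:119690101-119690350, plus strand: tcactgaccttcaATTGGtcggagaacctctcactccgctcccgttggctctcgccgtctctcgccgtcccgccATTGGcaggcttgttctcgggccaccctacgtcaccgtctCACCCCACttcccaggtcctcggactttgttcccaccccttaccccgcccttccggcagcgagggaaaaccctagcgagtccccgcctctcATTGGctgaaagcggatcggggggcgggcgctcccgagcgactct
Hsd17b7, chr1:169969206-169969455, minus strand: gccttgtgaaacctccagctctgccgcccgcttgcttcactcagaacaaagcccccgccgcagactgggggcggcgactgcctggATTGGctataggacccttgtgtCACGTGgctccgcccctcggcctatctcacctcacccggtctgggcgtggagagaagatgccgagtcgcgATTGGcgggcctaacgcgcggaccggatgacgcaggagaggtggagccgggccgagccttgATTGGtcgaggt
Ebp, chrX:8193513-8193762, minus strand: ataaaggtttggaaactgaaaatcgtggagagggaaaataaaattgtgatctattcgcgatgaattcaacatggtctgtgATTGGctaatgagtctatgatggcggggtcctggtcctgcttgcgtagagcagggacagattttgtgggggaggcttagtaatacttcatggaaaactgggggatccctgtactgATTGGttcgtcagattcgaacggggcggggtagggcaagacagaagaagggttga
Insig1, chr5:28071162-28071411, plus strand: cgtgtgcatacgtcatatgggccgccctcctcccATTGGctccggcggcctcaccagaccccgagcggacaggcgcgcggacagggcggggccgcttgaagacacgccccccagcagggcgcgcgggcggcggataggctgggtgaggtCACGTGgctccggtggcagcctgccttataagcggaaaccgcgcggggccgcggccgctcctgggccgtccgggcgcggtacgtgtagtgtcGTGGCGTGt
Fasn, chr11:120824548-120824797, minus strand: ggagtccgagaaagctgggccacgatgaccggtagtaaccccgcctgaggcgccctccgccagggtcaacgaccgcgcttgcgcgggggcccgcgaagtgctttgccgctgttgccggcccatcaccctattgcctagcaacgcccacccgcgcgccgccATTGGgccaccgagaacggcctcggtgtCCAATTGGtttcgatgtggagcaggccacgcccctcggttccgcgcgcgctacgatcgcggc

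Hmgcs1 held 1 CACNCCAC, 136 bases before its start, and 3 CCAAT boxes, while Insig1 held 1 of each motif. Neither Hsd17b7, Ebp nor Fasn held CACNCCAC, and they had 3, 2 and 3 CCAAT boxes. In Fasn a pair of CCAAT boxes on opposite strands overlap. CCAAT was found for 14 of the 15 sterol enzymes that had a window, in 14 of their 18 windows, or 77.8%, against 33.8% of all 32851 windows. For fatty acid enzymes it was in 2 of 6 windows, 33.3%, and for regulators in 5 of 10. CACNCCAC was in 2 of the 18 sterol windows, 0 of 6 fatty acid windows and 1 of 10 regulator windows, against 5.29% of all windows. CACGTG was in 3 of 18 (16.7%), 1 of 6 (16.7%) and 2 of 10 (20%), against 6.02%, so its share was not particular to the sterol enzymes. These are matches of letters, not sites, base composition was not matched, and no relation of the motifs to the signals was tested.

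The early steps make mevalonate and its isoprenoids. Hmgcs1, which makes HMG-CoA, was at 11.202, 11.370 and 11.121 in NU7441 1 to 3, against 11.129, 10.984 and 11.296 in DMSO 1 to 3. The groups overlapped, with the highest value in NU7441 2 and the lowest in DMSO 2. It averaged 11.23 ± 0.13 with NU7441 and 11.14 ± 0.16 with DMSO (SD, n = 3 each), a difference of 0.095 (SE 0.10, limma adjusted p = 0.886). The kinases Mvk and Pmvk, which phosphorylate mevalonate in turn, and the decarboxylase Mvd differed by 0.030, 0.025 and 0.050, each less than its standard error of 0.081, 0.077 and 0.11.

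Fdps, the farnesyl diphosphate synthase that nitrogen-containing bisphosphonates inhibit in osteoclasts, was at 11.52, 11.52 and 11.44 with NU7441, against 11.53, 11.53 and 11.74 with DMSO. All 3 values with NU7441 lay below the DMSO values, though the nearest were at 11.52 and 11.53, and DMSO 3 stood above the rest. Its difference of -0.11 (SE 0.079) had the smallest p of all 30 genes, 0.212 before adjustment (limma adjusted p = 0.830). Groups that do not overlap were found in 2 of 30 genes, Fdps and Elovl5, both lower, or 6.67%, against 12.8% of all genes.

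Squalene is made by Fdft1, oxidised by Sqle and closed to lanosterol by Lss. Fdft1 differed by -0.043 (SE 0.10). Sqle was at 11.075, 11.165 and 11.029 in NU7441 1 to 3 and at 11.133, 10.994 and 11.296 in DMSO 1 to 3, so the DMSO arrays enclosed all 3 values with NU7441. Its difference was -0.051 (SE 0.092, limma adjusted p = 0.935). Lss was at 10.00, 10.07 and 9.78 with NU7441 and at 10.04, 9.86 and 10.25 with DMSO, a difference of -0.100 (SE 0.12, limma adjusted p = 0.898). In all 3 genes the highest array was DMSO 3, and in Lss the lowest was NU7441 3.

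The late steps trim lanosterol. Cyp51, the lanosterol demethylase, was at 10.84, 10.83 and 10.74 with NU7441 and at 10.80, 10.65 and 10.95 with DMSO, a difference of 0.0039 (SE 0.091). Again the DMSO values enclosed those with NU7441. Tm7sf2, a sterol reductase, was at 8.68, 8.87 and 8.39 with NU7441 and at 8.45, 8.56 and 8.64 with DMSO, a difference of 0.096 (SE 0.13). Here NU7441 2 was the highest and NU7441 3 the lowest of the 6 arrays. Msmo1, which takes part in the removal of methyl groups, was at 10.18, 10.43 and 10.10 with NU7441 and at 10.27, 10.15 and 10.52 with DMSO, a difference of -0.075 (SE 0.12). Limma's adjusted p was 0.995 for Cyp51, 0.907 for Tm7sf2 and 0.929 for Msmo1.

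Nsdhl and Hsd17b7, which work with Msmo1, differed by -0.0036 (SE 0.11) and 0.035 (SE 0.16). The isomerase Ebp differed by 5.5e-05 (SE 0.067), the desaturase Sc5d by -0.049 (SE 0.11) and Dhcr7, the reductase that yields cholesterol, by -0.026 (SE 0.071).

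Among the regulators, Srebf2, which encodes SREBP2, was at 11.24, 11.26 and 11.21 with NU7441 and at 11.28, 11.02 and 11.37 with DMSO. The 3 NU7441 arrays thus spanned 0.050 and lay inside the DMSO span of 0.36. The difference was 0.013 (SE 0.099, limma adjusted p = 0.984). Srebf1, which encodes SREBP1, was at 8.59, 8.51 and 8.59 with NU7441 and at 8.52, 8.56 and 8.54 with DMSO, a difference of 0.024 (SE 0.062, limma adjusted p = 0.956).

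Insig1, itself a target of SREBP, was at 11.51, 11.64 and 11.41 with NU7441 and at 11.51, 11.52 and 11.68 with DMSO, a difference of -0.051 (SE 0.086). Insig2, which is less dependent on SREBP, was at 9.85, 9.84 and 10.05 with NU7441 and at 10.07, 9.84 and 9.99 with DMSO, a difference of -0.055 (SE 0.091). They differ in which arrays were low: NU7441 3 was the lowest array for Insig1 and the highest of its group for Insig2. Limma's adjusted p was 0.930 for Insig1 and 0.928 for Insig2. The cholesterol carrier Stard4 differed by -0.046 (SE 0.12).

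Scap, the escort of SREBP, has 2 probe sets with its symbol, and they disagree. The brighter one, used here, differed by -0.0096 (SE 0.067). The dimmer one was at 6.50, 6.69 and 6.61 with NU7441, against 6.25, 6.21 and 6.43 with DMSO, so that its groups did not overlap. Its difference was 0.30 (SE 0.087, unadjusted p = 0.0103), which did not pass in limma over all single-symbol probe sets (adjusted p = 0.685). Its interval, of the same level as those above, ran from 0.0954 to 0.506 and took in a 1.41-fold rise. The bound of 1.41-fold therefore does not hold for this second probe set, which was not among the 30 values counted above.

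**Figure D2:**
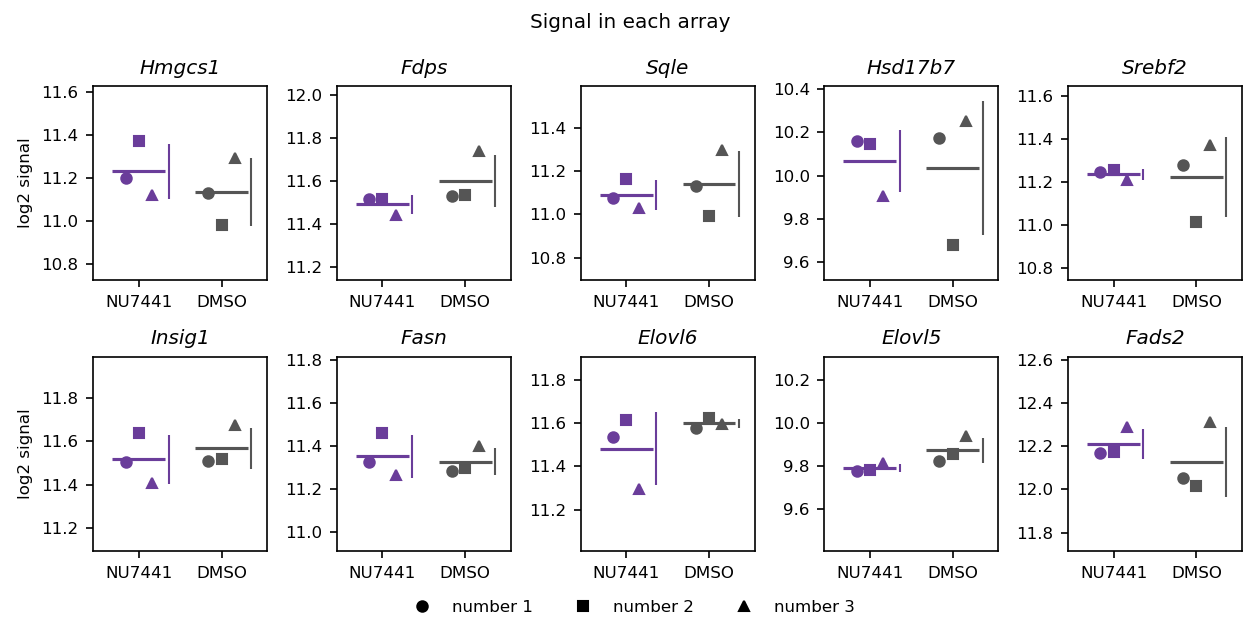
Log2 signal (y axis, each panel spanning the same 0.9) of 10 genes in every array, with NU7441 left and DMSO right; symbols give the replicate number, horizontal lines the mean and vertical lines the SD (n = 3). For Sqle and Srebf2 the NU7441 arrays lie within the span of the DMSO arrays, and DMSO 3 is high for Fdps.

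In the fatty acid branch, Acly, which splits citrate into cytosolic acetyl-CoA, differed by -0.042 (SE 0.11). Acaca, which makes malonyl-CoA, was at 9.62, 9.56 and 9.54 with NU7441 and at 9.55, 9.38 and 9.60 with DMSO, a difference of 0.064 (SE 0.078). Fasn, the synthase that builds palmitate, was at 11.327, 11.462 and 11.265 with NU7441 and at 11.284, 11.299 and 11.399 with DMSO, a difference of 0.024 (SE 0.077). In both genes the groups overlapped, and limma's adjusted p was 0.899 for Acaca and 0.963 for Fasn.

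Elovl6, which lengthens palmitate, was at 11.54, 11.62 and 11.29 with NU7441 and at 11.58, 11.62 and 11.60 with DMSO. Its difference of -0.12 (SE 0.093, limma adjusted p = 0.840) was the most negative of the 30. NU7441 3 stood low, and without that array the difference was -0.024. Scd1, the desaturase that makes oleate, was at 11.75, 11.79 and 11.69 with NU7441 and at 11.74, 11.66 and 11.87 with DMSO, a difference of -0.012 (SE 0.076, limma adjusted p = 0.980).

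The remaining members act on polyunsaturated fatty acids. Elovl5, an elongase, was at 9.77, 9.78 and 9.81 with NU7441 and at 9.82, 9.86 and 9.94 with DMSO. Its groups did not overlap, though NU7441 3 and DMSO 1 lay close together, and the difference of -0.082 (SE 0.064) did not pass (limma adjusted p = 0.840). Fads2, a desaturase, was at 12.17, 12.18 and 12.29 with NU7441 and at 12.05, 12.02 and 12.31 with DMSO, a difference of 0.083 (SE 0.096, limma adjusted p = 0.896). For Fads2 arrays numbered 3 were the highest of both groups. Fads1, the other desaturase, differed by 0.046 (SE 0.068).

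The branches differed in the median spread between arrays of one group, though their ranges overlapped and they were not matched for signal level. By array, the median log2 signal was 10.21 to 10.59 for the sterol enzymes and 11.28 to 11.54 for the fatty acid enzymes. The SD within groups, pooled over both, had a median of 0.142 over the 16 sterol enzymes and 0.0855 over the 8 fatty acid enzymes, with 0.110 for the regulators and carrier and 0.114 over all genes. Among sterol enzymes it ran between 0.055, for Ebp, and 0.243, for Hsd17b7. Among fatty acid enzymes it ran between 0.0444, for Elovl5, and 0.145, for Acly. Hsd17b7 was at 10.16, 10.15 and 9.90 with NU7441 and at 10.17, 9.68 and 10.25 with DMSO, so DMSO 2 stood low. For all 16 sterol enzymes the span of the DMSO arrays was larger than the difference between the groups. So it was for 7 of 8 fatty acid enzymes, all 6 regulators or carriers and 85.2% of all genes.

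**Figure D3:**
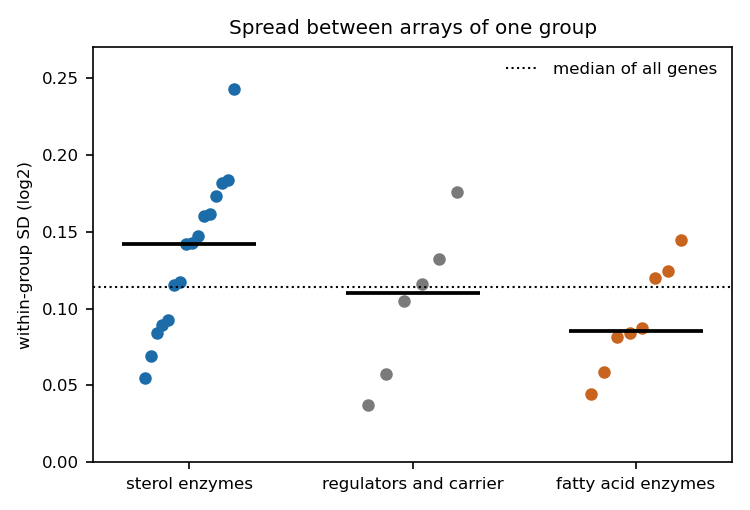
SD between arrays of one group, pooled over both groups (y axis, log2), for each gene (points) by class, with the class median (bars) and the median of all genes (dotted line). The sterol median, 0.142, lies above the dotted line and the fatty acid median, 0.0855, below it.

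The sterol enzymes moved from array to array largely as a block. Against each gene's mean over the 6 arrays, their median was 0.03 in NU7441 1, 0.05 in NU7441 2 and -0.10 in NU7441 3, against -0.01 in DMSO 1, -0.13 in DMSO 2 and 0.17 in DMSO 3. In DMSO 3, 15 of 16 lay above their own mean, Pmvk being the exception, whereas in DMSO 2 it was 1 of 16 and in NU7441 3 it was 0 of 16. Of the DMSO arrays, DMSO 3 was the highest for 15 of 16 (93.8%), against 31.4% of all genes, and DMSO 2 the lowest for 13 of 16, against 34.7%. Among the NU7441 arrays, NU7441 3 was the lowest for 14 of 16 (87.5%), against 33.7% of all genes. This pattern was noticed in these data and is given with no test.

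The step between DMSO 2 and DMSO 3 was the widest part of this pattern. DMSO 3 exceeded DMSO 2 by a median of 0.309 over the sterol enzymes, by 0.164 over the fatty acid enzymes and by 0.151 over the regulators, while the median over all genes was -0.0046. It was 0.58 for Hsd17b7, 0.42 for Nsdhl, 0.39 for Lss, 0.31 for Cyp51 and 0.30 for Sqle. The carrier Stard4, at 8.56, 8.65 and 8.48 with NU7441 and 8.70, 8.34 and 8.78 with DMSO, and Srebf2 showed it too, with 0.44 and 0.36. Elovl6, at -0.03, and Srebf1, Scap and Pmvk, each at -0.02, went the other way, and the step was under 0.1 in Tm7sf2, at 0.07, Ebp and Elovl5, each at 0.08, and Fasn, at 0.099. Among regulators and carrier DMSO 3 was the highest DMSO array for 3 of 6. In the 15 other sterol genes measured, the median step was -0.0495, with DMSO 3 the highest DMSO array for 4 (26.7%) and DMSO 2 the lowest for 4.

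**Figure D4:**
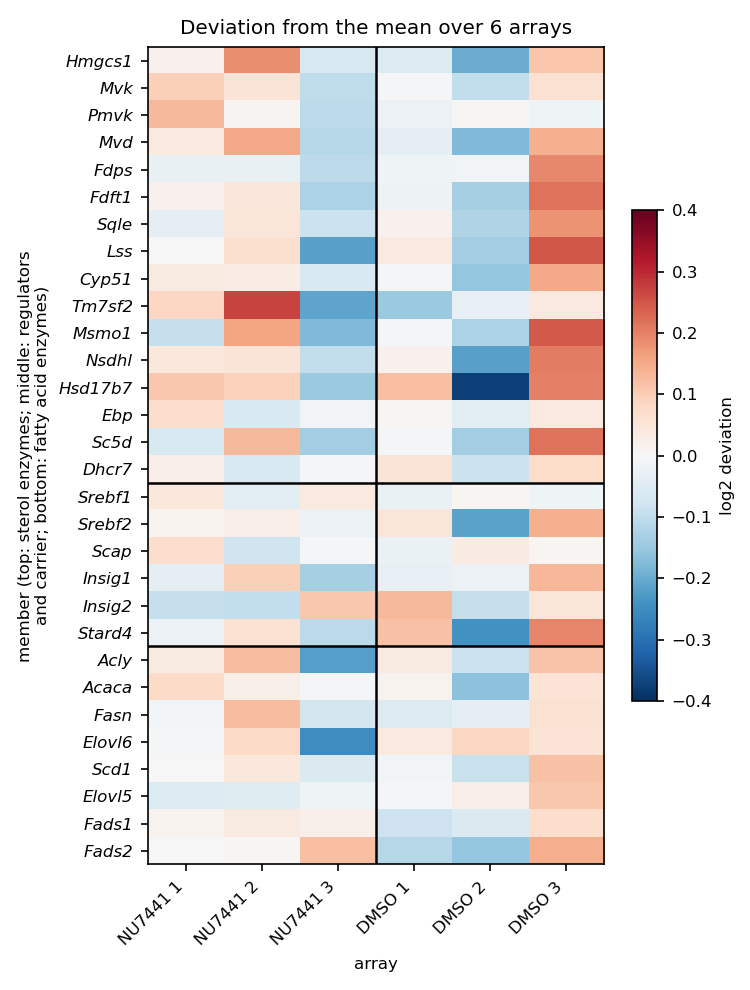
Deviation of each gene from its own mean over the 6 arrays (colour, log2), with genes in rows by class and arrays in columns, NU7441 left of DMSO. Among sterol enzymes DMSO 3 is mostly above the mean, and DMSO 2 and NU7441 3 mostly below it.

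The fatty acid enzymes had smaller steps and a less regular order. Their medians were -0.0016 in NU7441 1, 0.04 in NU7441 2 and -0.04 in NU7441 3, against -0.01, -0.07 and 0.09 in DMSO 1 to 3. All 8 were above their mean in DMSO 3, and 2 of 8 were in DMSO 2 and in NU7441 3. Of the DMSO arrays DMSO 3 was the highest for 7 of 8 (87.5%) and DMSO 2 the lowest for 4 of 8, while NU7441 3 was the lowest NU7441 array for 5 of 8 (62.5%). The gap between the branches by array, sterol minus fatty acid, was 0.034, 0.012 and -0.067 in NU7441 1 to 3, against 0.0045, -0.058 and 0.078 in DMSO 1 to 3. Among those that departed, Elovl6 spanned only 0.043 over the DMSO arrays, Elovl5 was lowest in NU7441 1, Fads2 was the highest of its group in NU7441 3 and Fads1 was lowest in DMSO 1.

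**Figure D5:**
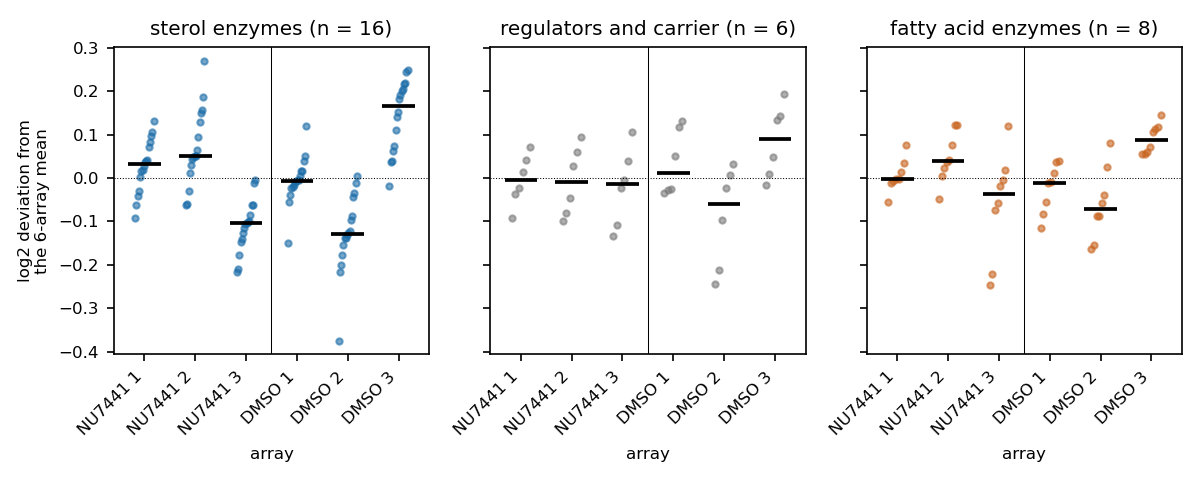
Deviation of each gene from its mean over the 6 arrays (y axis, log2; points) by array, NU7441 left of DMSO, with the class median (bars). The sterol medians run between -0.13 in DMSO 2 and 0.17 in DMSO 3, and the fatty acid medians between -0.07 and 0.09 in the same arrays.

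Set side by side by replicate number, the numbers 2 and 3 gave opposite directions. NU7441 1 minus DMSO 1 had a median of 0.032 over the sterol enzymes, with 9 higher and 7 lower. For the number 2 it was 0.194, with 14 higher, among them Hmgcs1 at 0.39 and Hsd17b7 at 0.47. For the number 3 it was -0.262, with 16 of 16 lower, among them Lss at -0.47 and Msmo1 at -0.42. The fatty acid enzymes gave 0.027, 0.144 and -0.130, with 8 of 8 lower for the number 3. Over all genes the medians were -0.0048, -0.0019 and 0.0070.

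Across the whole table, arrays of the same number deviated from their group means in the same direction somewhat more often than not, in 55.6%, 55.8% and 59.7% of genes for the numbers 1, 2 and 3. Sterol enzymes did so in 9, 3 and 2 of 16, and fatty acid enzymes in 6, 4 and 3 of 8. Taking the number as a block left 0 of 30 genes called in limma, the smallest adjusted p being 0.694, and 0 of 30 at an unadjusted p under 0.05, against 9.37% of all genes. With an intensity trend and a robust prior added to the block, a setting that called 0.451% of all genes, again 0 of 30 were called, the smallest adjusted p being 0.523, and 0 of 30 had an unadjusted p under 0.05, against 11.2% of all genes.

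Osteoblast markers also differed between arrays. Of 8 listed, 7 were measured, all higher with NU7441 and 0 called in limma. Col1a1, Col1a2 and Sparc were higher by only 0.044, 0.038 and 0.028. At an unadjusted p under 0.05 there was 1, Alpl (14.3%, against 6.79% of all genes). With the replicate number as a block 0 were called. At an unadjusted p under 0.05 there were then 4 of 7, Alpl, Bglap, Ibsp and Sp7, against 9.37% of all genes. With the intensity trend and robust prior added to the block 3 of 7 were called, against 0.451% of all genes. These were the matrix protein gene Ibsp, at 0.52 (limma adjusted p = 0.00755), the alkaline phosphatase gene Alpl, at 0.54 (limma adjusted p = 0.00823), and Sp7, a transcription factor of osteoblasts, at 0.53 (limma adjusted p = 0.0172). Without block, trend or robust prior, limma's adjusted p was 0.830 for Ibsp, 0.718 for Alpl and 0.755 for Sp7. With the block alone it was 0.353, 0.318 and 0.383. In each of these genes the groups overlapped. Their differences by number were 0.48, 0.61 and 0.55 for Alpl, 0.61, 0.54 and 0.40 for Ibsp and 0.42, 0.71 and 0.47 for Sp7. The list's median log2 signal was 12.02 to 12.89 with NU7441 and 11.41 to 12.67 with DMSO. Against the genes' own means it was -0.01, 0.09 and 0.66 in NU7441 1 to 3, and -0.41, -0.14 and 0.11 in DMSO 1 to 3. The sterol enzymes were low in NU7441 3 and in DMSO 2 and high in DMSO 3.

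Adipocyte markers, 9 of 10 measured, were 6 higher and 3 lower with NU7441, with a median difference of 0.064 and 0 called. They had medians of 5.67 to 5.76 with NU7441 and 5.65 to 5.99 with DMSO. Over all arrays Adipoq was at 4.96 to 5.38 and Pparg at 5.25 to 5.55, near the arrays' lower quartiles of 5.11 to 5.16. Plin1, at 6.30 to 6.76, Lipe, at 6.85 to 7.10, and Cebpa, at 7.68 to 7.92, were higher. Fabp4, a fatty acid carrier of adipocytes, was at 4.57 to 5.04 with NU7441 and 5.65 to 6.23 with DMSO, a difference of -0.99 (SE 0.19, limma adjusted p = 0.598, and 0.0211 with the block, trend and robust prior). Its values with NU7441 thus lay below the arrays' lower quartiles, so this difference rests on dim signal. Retn, the resistin gene, also dim at 5.35 to 5.84 over all arrays, ran the other way. Its difference was 0.28 (SE 0.084, limma adjusted p = 0.698), also without overlap. Fabp4 and Retn make up the 22.2% of the 9 markers whose groups did not overlap, against 12.8% of all genes. The same 22.2% had an unadjusted p under 0.05, against 6.79% of all genes. The 6 macrophage markers had medians of 5.80 to 5.87 with NU7441 and 5.83 to 5.90 with DMSO, and the 5 endothelial ones 5.82 to 5.87 with NU7441 and 5.74 to 5.88 with DMSO. The part of any of these in the sterol pattern was not tested. Array medians lay between 6.38 and 6.42 and every value of the 30 genes at 8.34 or above, while signal over background was not analysed here.

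Other genes of the same routes gave 0 calls in limma too. Of 25 further sterol genes 15 were measured, 6 higher and 9 lower, with a median of -0.019, and in 6 of 15 (40%) the groups did not overlap, 3 above and 3 below DMSO, against 12.8% of all genes. At an unadjusted p under 0.05, 2 of 15 (13.3%, against 6.79% of all genes) were lower, Erlin1 and Erlin2, paired proteins of the endoplasmic reticulum that take part in sterol-controlled degradation. Erlin2 was at 9.26, 9.27 and 9.25 with NU7441 and at 9.55, 9.50 and 9.43 with DMSO, with no overlap and a difference of -0.23 (SE 0.063, limma adjusted p = 0.681). Erlin1 was at 9.43, 9.45 and 9.47 with NU7441, against 9.50, 9.89 and 9.73 with DMSO, a difference of -0.26 (SE 0.10, limma adjusted p = 0.724). Npc1, which moves cholesterol out of lysosomes, differed by -0.18 (SE 0.077, limma adjusted p = 0.738).

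Of 32 further fatty acid genes 29 were measured, 10 higher and 19 lower, with a median of -0.033 and 4 lower at an unadjusted p under 0.05, Hacd1, Elovl7, Me1 and Dgat2. In 6 of 29 (20.7%) the groups did not overlap, all 6 lower with NU7441, against 12.8% of all genes in either direction. The 4 are 13.8% of the 29, against 6.79% of all genes. Hacd1, a dehydratase of the elongation cycle, was at 7.56, 7.57 and 7.39 with NU7441, against 7.91, 7.87 and 7.89 with DMSO. All NU7441 arrays were lower, by -0.38 on average (SE 0.073, limma adjusted p = 0.598). The elongase Elovl7 was at 7.05, 6.95 and 6.79 with NU7441, against 7.23, 7.33 and 7.27 with DMSO, a difference of -0.35 (SE 0.083, limma adjusted p = 0.643). Me1, the malic enzyme that supplies NADPH, was at 10.83, 10.84 and 10.88 with NU7441, against 11.13, 10.97 and 11.14 with DMSO, a difference of -0.23 (SE 0.071, limma adjusted p = 0.698). In each of these 3 the groups did not overlap, yet none passed over all genes. Acss2, which makes acetyl-CoA from acetate, differed by 0.019 (SE 0.078).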

How the data were processed

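The authors deposited log2 values of 41345 probe sets on 6 arrays. The log2 scale was inferred from the values themselves, and how the authors corrected, summarised and normalized them is not given in the sources used here. The platform annotation gave 1 symbol to 23521 probe sets, several to 1814 and none here to 16010. Entrez numbers of 23328 of them were in the reference gene table and 0 symbols changed. Groups and replicate numbers came from the labels, and 0 columns of other samples were present.

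Differences, NU7441 minus DMSO, were tested with limma 3.58.1 under R 4.3.3 (two-sided, lmFit followed by eBayes, with a single term for group) over all 22180 genes, with Benjamini-Hochberg adjustment and a threshold of 0.05. On simulated data (5 draws of 200 changed among 22180 genes) the share recovered was 56.6% at a 1.41-fold change and 97.4% at a 2-fold change, with 5.19% of calls false. The simulated noise was normal and independent between arrays, and the adjusted p depends on how many genes change. These shares therefore check the code and are not the power of the test on these arrays. Class medians are descriptions.

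Members and lists were chosen with earlier results of these data known. Values in every array are given for the 5 sterol enzymes, 3 regulators and 4 fatty acid enzymes of smallest p, the largest difference of each class and 11 genes fixed by name, of which Scd2 was not measured. Other pathway genes were the 3 of smallest p per list, Acss2 and Me1. Some genes of these lists are not reported here. Hsd17b7, Ebp, Stard4, Fabp4, Retn, Alpl, Bglap, Ibsp, Sp7, Dgat2 and the second Scap probe set were chosen after their values were seen, as were the bound of 1.41-fold and the description by array.

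Deviations from group means correlated over genes between 0.149 and 0.339 for arrays of the same number and between -0.246 and 0.094 otherwise. Since all 3 same-number correlations exceeded 0.1, the arrays were treated as paired by number in the alternatives with a block. This comes from the data, since no label states it. The other alternatives were the intensity trend plus robust prior, with the block and without it, quantile normalization, median centring, the upper 75 percent of genes by level, averaging all probe sets of a gene and leaving out each array. Orientation of the promoter windows was checked on 1892 overlaps of windows on opposite strands, of which 1892 were reverse complements. Figures were drawn with matplotlib 3.10.9.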

Additional observations from a re-analysis of the deposited data

How the results depend on the processing

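Under 13 other settings limma called 0 of the 30 genes, and 0 had an unadjusted p under 0.05 in either direction, the smallest adjusted p being 0.523. Of the other pathway genes 0 were called. The replicate block changed no call of these genes. With trend and robust prior added it called 3 of 7 osteoblast and 1 of 9 adipocyte markers, against 0 and 0 with the block alone. That setting called 0.451% of all genes. At an unadjusted p under 0.05 it had 5 of 15 other sterol and 4 of 29 other fatty acid genes, against 11.2% of all genes. With the block alone these were 3 of 15 and 3 of 29, against 9.37% of all genes. The count of genes whose interval excluded a 1.41-fold change, 30, was 29 to 30 on leaving out 1 array, the exception being Hsd17b7, whose upper bound was 1.46-fold to 1.47-fold without NU7441 3, DMSO 1 or DMSO 3. Leaving out 1 array moved the median of the sterol enzymes between -0.095 and 0.052, of the fatty acid enzymes between -0.034 and 0.052, of the regulators and carrier between -0.083, without DMSO 2, and 0.012, and the gap between the branches between -0.064 and 0.019.

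The sign of small differences was not stable. Of 17 named members 10 turned in at least 1 setting and 7 in none. With quantile normalization Scd1 was at 0.0052, and with median centring Cyp51 was at -0.017 and Srebf2 at -0.0083. On leaving out 1 array Cyp51 ran between -0.072 and 0.081, Tm7sf2 between -0.016 and 0.22, Fasn between -0.032 and 0.067, Insig1 between -0.11 and 0.0034, Scd1 between -0.059 and 0.043, Srebf2 between -0.090 and 0.088, Acaca between -0.0015 and 0.11, Sqle between -0.12 and 0.026, Lss between -0.19 and 0.00015 and Msmo1 between -0.17 and 0.029. With 3 arrays a group, precision is limited by their number.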
